A study of Mus musculus with 6 samples.

Results

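The regions described here lie around 8 genes of the myeloid lineage in mouse long-term haematopoietic stem cells. The genes were Spi1, Cebpa, Cebpb, Cebpd, Cebpe and Gfi1, which encode transcription factors, and Csf1r and Csf3r, which encode receptors. A region was chosen if it overlapped the gene body or the 50 kb on either side of it, after peaks of the 6 deposited lists that shared at least 1 bp had been merged. This gave 377 regions out of 882758 merged regions on chromosomes 1 to 19 and X, of which 611872 lay within 50 kb of a protein-coding gene. The assay was ATAC-seq, which reads out open chromatin as the sites where a transposase could insert adapters. The material was long-term stem cells of C57BL/6 mice, with 3 lists from aged and 3 from young mice. All 6 samples had been sorted for Kit and Sca1 without lineage markers, Flk2 or Cd34, and had been held overnight at 3% oxygen in buffered salt solution with serum. Ages in weeks, sex and the number of animals behind each list were not given in the labels, so the spread between lists may be partly technical. The coordinates are those of mm10.

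PU.1, the product of Spi1, is an ETS-family factor needed for macrophages, neutrophils and B cells, and its gene is driven by an upstream regulatory element to which PU.1 itself binds. The C/EBP factors are leucine-zipper proteins: C/EBPα opens the granulocyte-monocyte programme, C/EBPβ serves emergency granulopoiesis, C/EBPδ is induced in inflammation, and C/EBPε acts late, in granule formation. Gfi1 is a zinc-finger repressor that favours granulocytes and restrains stem cell proliferation, and Csf1r and Csf3r are the receptors for M-CSF and G-CSF. In stem cells many lineage genes are expressed weakly or not at all, and accessible enhancers without strong transcription are often described as priming.

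The 6 lists differed in length and resolution, and this bears on every count below. They held 244692, 129137 and 129949 distinct peaks in aged replicates 1, 2 and 3, and 263956, 254869 and 110596 in young replicates 1, 2 and 3. Of the regions that all the other 5 lists called, young replicate 2 called 62.3% and aged replicate 3 called 75.6%, while the other 4 lists called between 97.4% and 99.6%. A −log10 q of 5 or more was reached by only 224 peaks of young replicate 2, while the other lists had between 6005 and 31725 such peaks. Because peak heights are not comparable between lists, strength is given as a percentile, the rank of a peak's −log10 p within its own list, where 100 is the strongest. The percentiles of young replicate 2 are coarse: its 254869 peaks share 200 distinct p values, against 2302 to 17537 in the other lists, so the same few percentiles recur in it. No list gave reads per region, so the depth behind a call is unknown. "Not called" means that the list holds no peak there.

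The deposited lists cover the starts of the genes unevenly, and the reference promoters are printed because 4 of the 8 genes could be placed on an annotated start: Cebpa, Cebpb, Gfi1 and Csf3r. The sequences are from RefSeq, build GRCm38.p6, read 5′ to 3′ on the strand of the gene; capitals mark a motif match. Those of Cebpa, Cebpb and Gfi1 are the 250 bases before the start, and that of Csf3r is 30 of those 250 bases, around its motif match.
Cebpa, chr7:35119043-35119292, plus strand: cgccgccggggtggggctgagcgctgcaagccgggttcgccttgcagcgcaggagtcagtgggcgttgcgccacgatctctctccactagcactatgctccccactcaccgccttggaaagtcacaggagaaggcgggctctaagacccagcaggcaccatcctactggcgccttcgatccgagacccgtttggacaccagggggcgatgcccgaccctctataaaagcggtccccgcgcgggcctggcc
Cebpb, chr2:167688665-167688914, plus strand: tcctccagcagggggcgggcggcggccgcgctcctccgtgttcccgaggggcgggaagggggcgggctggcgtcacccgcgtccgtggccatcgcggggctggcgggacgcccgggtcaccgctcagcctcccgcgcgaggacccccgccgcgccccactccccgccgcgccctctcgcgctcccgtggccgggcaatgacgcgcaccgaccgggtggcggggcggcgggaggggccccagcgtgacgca
Gfi1, chr5:107725806-107726055, minus strand: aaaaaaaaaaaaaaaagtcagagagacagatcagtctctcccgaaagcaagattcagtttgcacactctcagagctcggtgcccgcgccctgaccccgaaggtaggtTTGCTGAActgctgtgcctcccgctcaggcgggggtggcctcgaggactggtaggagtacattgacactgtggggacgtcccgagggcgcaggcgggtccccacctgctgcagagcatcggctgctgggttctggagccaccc
Csf3r, chr4:126024561-126024590, plus strand: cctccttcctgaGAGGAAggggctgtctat
The Cebpb stretch was 81.6% G and C with 41 CG dinucleotides, and the Cebpa stretch 66.4% with 22. The median over 21044 promoters of protein-coding genes was 55.6% with 10 CG dinucleotides, and the 90th percentile of CG dinucleotides was 27. Peaks overlapped the Cebpb stretch in 6 lists and the Cebpa stretch in 4. A peak overlapped the Gfi1 stretch, which lies before the first of its 2 annotated starts, in 2 lists.

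Motifs were searched on both strands of the 250 bases before each of these starts. For PU.1, the core letters GAGGAA were searched, which occur in 22.5% of all promoters. The longer PU.1 letters AGGAAGT, which can overlap that core, occur in 7.35%. For C/EBP factors the letters were TTGCNNAA, present in 9.18% of promoters, and the looser TTNCNNAA, which contains the first and is present in 34.1%. The letters TGTGGT of RUNX factors occur in 12.2% of promoters. The letters AGATAA of GATA factors occur in 8.84%. The letters TGANTCA of AP-1 occur in 6.17%, and the CCAAT box occurs in 35.6%. The Csf3r promoter held the PU.1 core at bases -86 to -81 from the start, within the 30 bases printed above. The Gfi1 promoter held the C/EBP letters, in both the strict and the looser form, at bases -143 to -136. None of the 8 motifs was found in the Cebpa and Cebpb stretches. These are letters in a window and say nothing about binding.

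Most regions around the 8 genes were called in a single list, and a small set was called in all. Of the 377 regions, 270 (71.6%) were called in 1 list, compared with 83.2% of the regions within 50 kb of a protein-coding gene. Another 49 regions were called in 2 lists, 17 in 3, 14 in 4 and 9 in 5, and 18 were called in all 6 lists. These 18 made up 4.77% of the regions, beside 1.49% of regions near protein-coding genes and 1.09% of all merged regions. Of the 9 regions called in 5 lists, 8 lacked young replicate 2 and 1 lacked aged replicate 3. Of the 14 called in 4 lists, 10 lacked both of these. The 18 became 37 when both of those lists were left out, and 4 when a list's peaks had to cover 50% of a region. The shares of all merged regions at those 2 settings are not given here. Whether the excess over other regions held there is therefore not known.

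**Figure D1:**
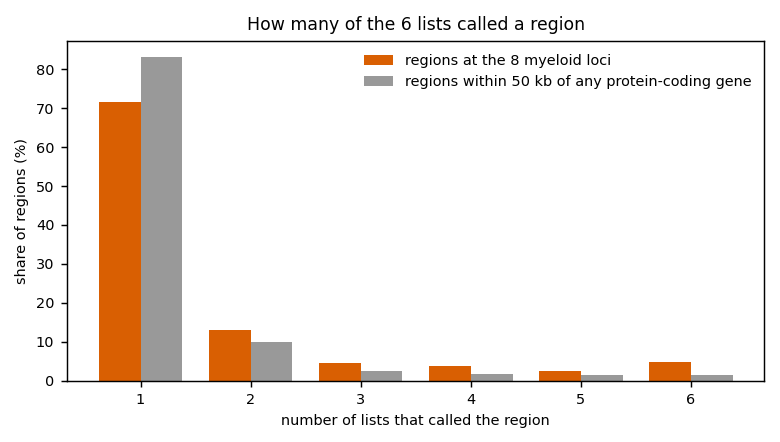
Share of regions (%, vertical axis) called in 1 to 6 lists (horizontal axis), for the 377 regions at the 8 myeloid genes (orange) and all regions within 50 kb of a protein-coding gene (grey). The orange bar exceeds the grey one at 2 to 6 lists (4.77% against 1.49% at 6) and is lower at 1 list (71.6% against 83.2%).

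Accessible regions called in all 6 lists lay near every one of the 8 genes: 4 at Cebpb, 3 each at Spi1 and Csf1r, 2 each at Cebpd, Cebpe and Gfi1, and 1 each at Cebpa and Csf3r. The median over the 8 loci was 2, against 1 over all 21627 protein-coding genes. Of those genes, 37.4% had none in the gene body and the 50 kb on either side, so the width varied with gene length. By position, 2 of the 18 lay within 1 kb of the start of the gene itself (Cebpb and Cebpd), 3 at the start of another gene, 3 at an end of another gene whose start was not known here, 2 inside the gene itself, 4 inside another gene and 4 between genes. Away from annotated starts, 13 of 354 regions (3.67%) were called in all 6 lists, beside 0.679% of 588748 regions near protein-coding genes but away from annotated starts.

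**Figure D2:**
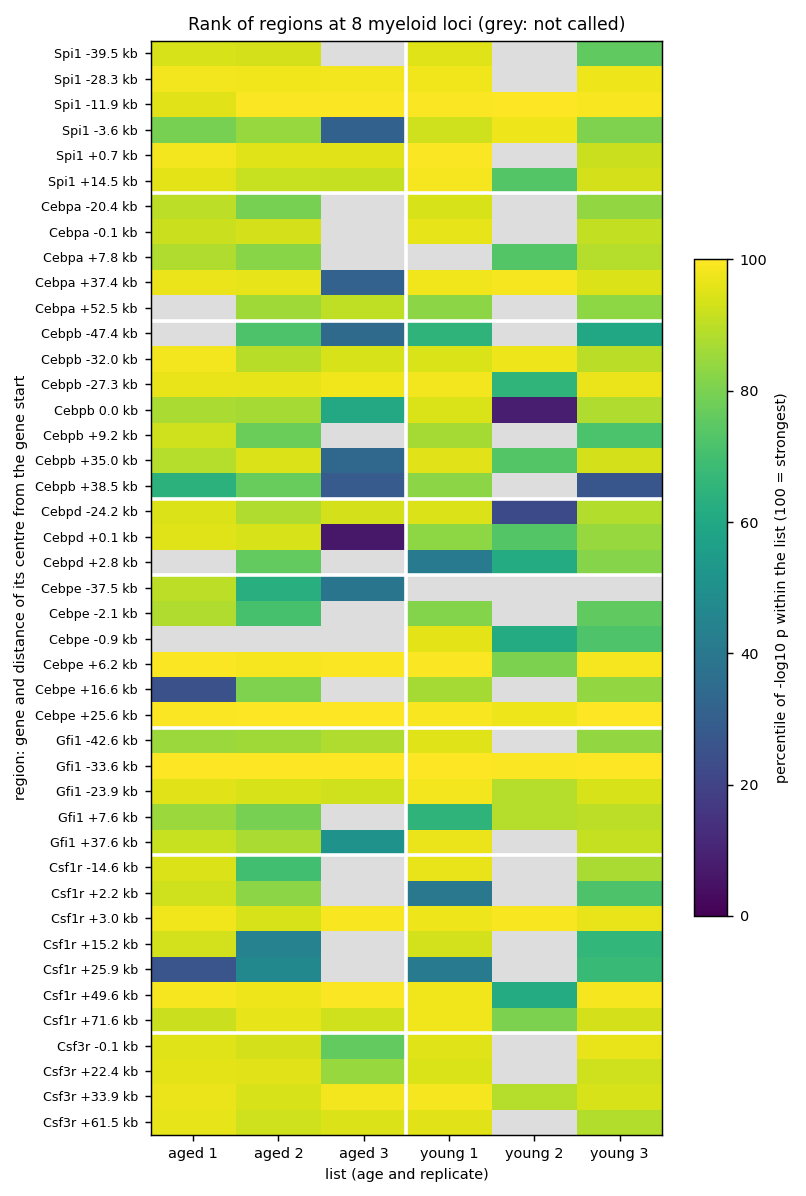
Percentile of −log10 p within the list (colour, 100 strongest, grey for not called) for regions called in at least 4 lists or in all 3 lists of one age and none of the other; rows are regions named by gene and distance of the centre from its start (kb), columns the 6 lists. Rows of a full colour across all 6 columns include Gfi1 -33.6 kb, and the grey cells fall mainly under aged replicate 3 and young replicate 2.

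Spi1 (chr2:91082374-91115759, plus strand) had 61 regions. The reference table gave no start for Spi1, so the outer end of its gene body was used as the start. There, a region centred 0.7 kb downstream stood at percentiles 98.3, 95.2 and 95.6 in aged replicates 1 to 3. In young replicates 1 and 3 it stood at 99.5 and 91.8. Young replicate 2 called only a separate, smaller region at -0.1 kb, at percentile 61.5. This assumed start was thus called in all 6 lists, and above the 91st percentile in 5 of them. Whether the regions at +0.7 and +14.5 kb are promoter or distal regions of Spi1 was not tested. The 2 regions of Spi1 away from both its start and other genes' starts that all lists called were one inside the gene at +14.5 kb and one upstream at -3.6 kb. The aged lists ranked the one at +14.5 kb at 96, 91.6 and 91.4, and the young lists at 98.7, 73.1 and 93.6. The one at -3.6 kb had 79.5, 84.6 and 31.2, and 92.6, 97.6 and 80.7. The ages overlapped at both.

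Upstream, 21 regions lay more than 1 kb from the Spi1 start, of which 2 were called in all 6 lists, 4 in at least 4 and 15 in 1. The start used for Spi1 was assumed, and the known distances of its elements may be counted from another start. Windows placed from it may therefore miss the elements, and accessibility of the elements themselves was not tested. The window from -15500 to -13000 bp, placed for the upstream regulatory element known at about -14 kb, contained no peak in any of the 6 lists. The nearest peaks left a stretch of 5711 bp without one, from -18.1 to -12.4 kb (chr2:91064281-91069991). At the same offset from the starts of 17273 genes, 2.88% had a region called in all 6 lists and 36.9% had no region, so a window without a peak was common. The window for an element known at about -12 kb overlapped a region at -11.9 kb (chr2:91069992-91070869). Its percentiles were 95.7, 99.3 and 99.3 in the aged lists and 99.4, 99.8 and 98.9 in the young lists. That region also covers the start of Slc39a13, a zinc transporter gene, and of a long non-coding RNA gene, so the peak cannot be assigned to Spi1. The window for the elements at -8 to -10 kb held only a region at -8.8 kb called in aged replicate 1, at percentile 23.9. All-list regions occur at those 2 offsets in 2.51% and 3.43% of genes.

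Cebpa (chr7:35119293-35121928, plus strand) had 40 regions. Its start was called in 4 lists, at percentiles 92 and 93.4 in aged replicates 1 and 2 and at 96.2 and 90.8 in young replicates 1 and 3. It was not called in aged replicate 3 or young replicate 2. Upstream of Cebpa, none of 14 regions was called in all 6 lists. The best supported, at -20.4 kb, was called in the same 4 lists, at 90.1, 79.3, 93.8 and 83.8, and one at -38.0 kb was called in 3. Downstream, by contrast, the +37 kb enhancer known to drive Cebpa in myeloid progenitors was called in all 6 lists, and it was the only region of Cebpa that was. It lay at chr7:35156379-35157058, within 1 kb of the start of a long non-coding RNA gene. Its percentiles were 97.1, 96.1 and 31.6 in the aged lists and 97.8, 98.6 and 94.9 in the young lists, with the low value in aged replicate 3. All-list regions at that offset occurred in 2.81% of genes.

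The other C/EBP genes differed in where their accessible regions lay. Cebpb (chr2:167688915-167690432, plus strand) had 49 regions and the most called in all 6 lists. Its start was called in all of them, at percentiles 87.2, 86.6 and 60.2 in the aged lists and 94.3, 61.5 and 87.9 in the young lists, the value of young replicate 2 coming from a smaller neighbouring region. Its strongest distal region, at -32.0 kb inside Tmem189, stood at 98.1, 89.2 and 93.8, and 94.4, 97.3 and 89.8. A region at +35.0 kb between genes stood at 88.8, 94.7 and 33.8, and 95.6, 73.1 and 93.7. The remaining one lay at -27.3 kb, at an end of Tmem189 that may be its start.

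Cebpd (chr16:15887286-15889545, plus strand) had 27 regions, the fewest of the 8. Its start was called in all 6 lists, at percentiles 95.1, 94 and 6.32 in the aged lists and 82.9, 73.1 and 84.6 in the young lists; the low value is again that of aged replicate 3. Its other all-list region, at -24.2 kb, is at an end of Mzt2 that may be the start of that gene, and its mean percentile was 80.3 against 72.6 at the start of Cebpd. With such gene ends left out, the strongest region away from starts was one at +14.1 kb, called in 2 lists, with a mean percentile of 25.6 when lists without a call are counted as 0.

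Cebpe (chr14:54710363-54712174, minus strand) showed the reverse arrangement, with its start region called only in young lists and a strong enhancer called in all. The region at -0.9 kb (chr14:54712828-54713265) was called in the 3 young lists, at percentiles 95.9, 61.5 and 72.3 and fold enrichments over background of 6.62, 2.75 and 4.4, and in no aged list. A region at -37.5 kb (chr14:54749156-54750105), inside Slc7a8, was called in the 3 aged lists, at percentiles 90.1, 62.5 and 39 and fold enrichments of 4.57, 3.42 and 3.16, and in no young list. These were the only 2 of the 377 regions that separated the ages in this way, 1 in each direction. The background near protein-coding genes was 0.0556% aged only and 0.0703% young only. The young-only call was lost when each list was reduced to its strongest 100000 peaks, and the aged-only call was lost at a −log10 q of at least 1.3 or when peaks had to cover 50% of the region. The enhancer known at +6 kb from Cebpe was called in all 6 lists at chr14:54705700-54706311. It stood at 99.6, 98.7 and 99.3 in the aged lists and 99.6, 80.3 and 98.5 in the young lists, and all-list regions at that offset occurred in 2.06% of genes. The other all-list region, at +25.6 kb, lay at the start of Acin1, at 99.4, 99.9 and 99.9, and 99.2, 97.3 and 99.9.

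Gfi1 (chr5:107716655-107725805, minus strand) had 46 regions, and the one with the highest mean percentile of all 377 belonged to it. The known enhancer at about -35 kb matched a region at -33.6 kb (chr5:107759022-107759702) inside the neighbouring gene Evi5. Its percentiles were 99.9, 99.7 and 99.7 in the aged lists and 100, 99.6 and 99.8 in the young lists. Fold enrichments were 14.9, 20.4 and 12.3 in the aged lists and 17.6, 5.22 and 22.9 in the young lists. All-list regions occur at that offset in 4.09% of genes. A second all-list region, at -23.9 kb, also inside Evi5, stood at 95.4, 93.9 and 92.8, and 98.4, 88.8 and 93.9. The start of Gfi1 was weaker: 5 lists called a region within 1 kb of it, at 61.9, 70.5 and 51.4 in the aged lists and 82.9 and 66.6 in young replicates 1 and 3, through several small regions.

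Of the receptors, Csf1r (chr18:61105572-61131139, plus strand) had 60 regions and Csf3r (chr4:126023441-126044975, plus strand) 53. No list held a peak within 1 kb of the Csf1r start. The intronic enhancer FIRE, which is needed for Csf1r expression in some macrophages, overlapped a region at +3.0 kb (chr18:61108112-61109007) that all 6 lists called. Its percentiles were 97.7, 93.9 and 99.1 in the aged lists and 97.4, 99.1 and 96.5 in the young lists, and all-list regions occur at that offset in 1.41% of genes. Beside it, a smaller region at +2.2 kb was called in 4 lists and one at +3.6 kb in young replicate 2 alone. The other 2 all-list regions of Csf1r, at +49.6 and +71.6 kb, were inside Hmgxb3 and at one of its ends. At Csf3r, by contrast, the start was called in 5 lists. It stood at 95.3, 93.6 and 75.8 in the aged lists and at 95.3 and 96.7 in young replicates 1 and 3. A distal region of Csf3r at +61.5 kb was also called in 5 lists, with a mean percentile of 77.9 against 76.1 at the start. The only all-list region was at the start of Oscp1, at +33.9 kb.

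Windows for known enhancers numbered 7. Those for Cebpa +37 kb, Csf1r FIRE, Gfi1 -35 kb and Cebpe +6 kb each held a region called in all 6 lists. The Spi1 windows were placed from an assumed start. The one at -12 kb also held an all-list region, which covers the start of Slc39a13 and cannot be assigned to Spi1. All-list regions occurred at the offsets of the 7 windows in 1.41% to 4.09% of genes. Over the 8 genes, the start was called in all 6 lists for 3 (37.5%), Spi1, Cebpb and Cebpd, against 35% of protein-coding genes. Genes without a start in the reference table, such as Spi1 and Cebpd, were counted by either end. By merged region the order was the reverse. Of 17 regions at the annotated or assumed starts of the 8 genes, 2 (11.8%) were called in all 6 lists, against 22.2% of merged regions at annotated starts. The count of 3 genes became 7 without aged replicate 3 and young replicate 2, and 1 at a −log10 q of at least 1.3. The shares of all protein-coding genes at those settings are not given here, so these counts have no background beside them. The start or end was called in the 3 young lists and no aged list for 1 gene, Cebpe, and in the aged lists alone for none. Among protein-coding genes these shares were 0.231% and 0.148%, and 15.6% were called in no list. A distal region is here one away from annotated starts and from both ends of genes whose start was not known. The strongest such region had a higher mean percentile than the start for 7 of the 8 genes (87.5%), against 54.1% of 17273 genes, and Cebpd was the exception. With those gene ends counted as distal, a choice made after the data were seen, it was 8 of 8 genes against 56.7%, since the -24.2 kb region at Mzt2 then stood for Cebpd. The medians over the 8 genes were 67.3 for the start and 92.2 for the strongest distal region, against 59.5 and 55.8 over the 17273 genes. The smallest of these margins were at Spi1, 90.7 for the distal region against 90.3 at an assumed start, and at Csf3r, 77.9 against 76.1. For Csf1r the value at the start is that of a region at the other end of the gene, called in 4 lists. Choosing the highest of many distal regions favours the distal value in both sets.

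**Figure D3:**
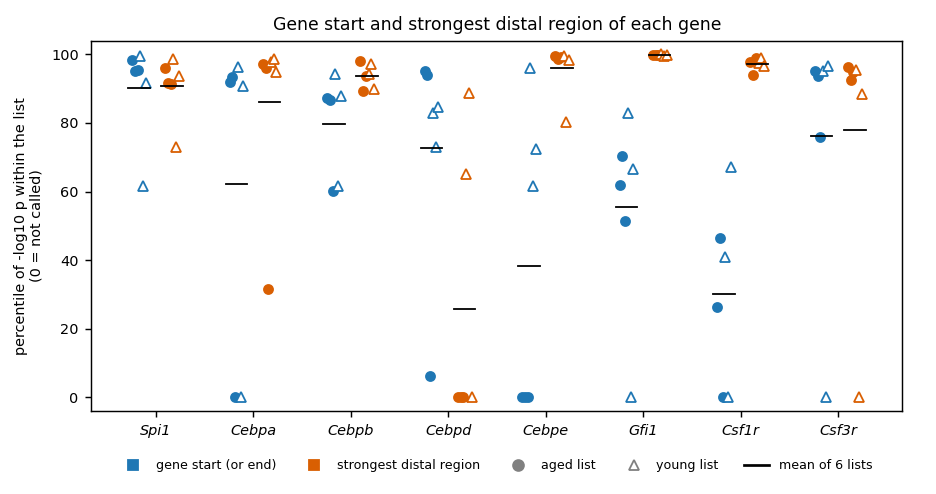
Percentile of −log10 p within the list (vertical axis, 0 for not called) for the start (blue; for genes without a start in the reference table, either end) and the strongest distal region (orange; away from starts and from ends of genes whose start was not known) of each gene; circles are aged and triangles young lists, and the line is the mean of 6 lists. The mean of the distal region lies above that of the start in 7 genes, and below it at Cebpd.

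The difference between ages in the number of regions called was within the spread between lists. The aged lists called 124, 96 and 73 of the 377 regions (97.7 ± 25.5, SD, n = 3) and the young lists 128, 109 and 98 (112 ± 15.2, n = 3). The difference of -14 regions had an exact two-sided permutation p of 0.4, where 3 lists against 3 can reach no less than 0.1. Relative to the length of the list, the 8 loci held 61.6 ± 12.1 peaks per 100000 in aged and 61.2 ± 24.8 in young lists (exact permutation p = 0.9). The mean percentile of the called regions was 59.1 ± 5.87 in aged and 58 ± 7.62 in young lists, with a difference of 1.1 (exact permutation p = 0.8).

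By gene, the difference in regions called ranged from -5 at Cebpd to 0.333 at Gfi1, with exact permutation p from 0.4 to 1 and an adjusted p (Benjamini-Hochberg over the 8 genes) of 1 in each. At Cebpd the aged lists called 6, 4 and 4 regions and the young lists 14, 11 and 4. At Cebpe they called 15, 9 and 5, and 18, 12 and 11. At Spi1 they called 18, 17 and 12, and 20, 16 and 15. The ages overlapped at each gene.

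The mean percentile of the regions called at a gene differed between ages by -9.63 at Gfi1 to 11.3 at Csf3r, and no difference passed 0.05. At Cebpe it was 66, 73 and 64.8 in the aged lists and 63, 57.1 and 53.8 in the young lists. The 3 aged lists thus stood above the 3 young ones, with a difference of 10 and an exact permutation p of 0.1, the smallest possible (adjusted p = 0.8 over the 8 genes). Among the strongest 100000 peaks of each list this difference was -2.96. At Csf3r the lists overlapped, at 52.5, 78.5 and 59.4 against 52, 49.2 and 55.3 (exact permutation p = 0.2, adjusted p = 0.8). At Gfi1 they were 47.8, 73.5 and 54.3 against 73.3, 60.2 and 71 (exact permutation p = 0.4, adjusted p = 0.9). At the other 5 genes the exact p was 0.7 or 0.9.

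**Figure D4:**
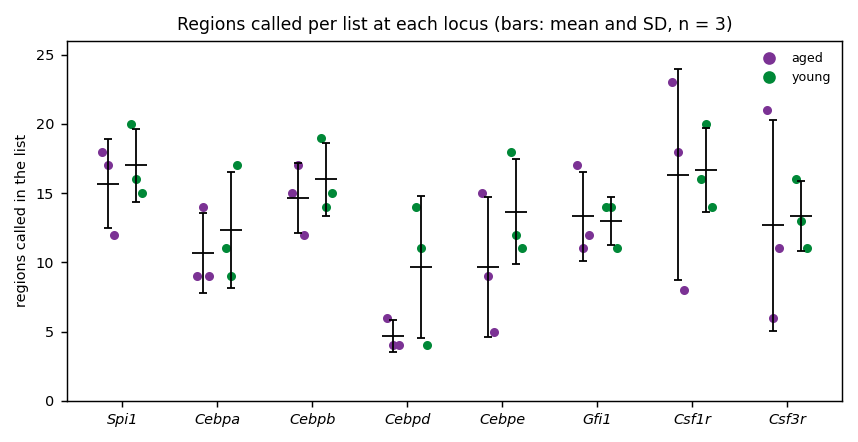
Number of regions called in a list (vertical axis) at each of the 8 genes, for the 3 aged (purple) and 3 young (green) lists, with the mean and SD (n = 3). The ages overlap at all 8 genes.

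Among the 18 regions called in all 6 lists, none had the 3 aged percentiles all above or all below the young ones. Of all 9582 regions called in every list, 3.55% had them all above and 2.54% all below. The aged mean was higher at 11 of the 18 and the young mean at 7, with a median difference of 0.633 percentile points against 1.49 over all 9582 regions. Over those 9582 regions no exact permutation test fell under 0.05, 583 (6.08%) were at the smallest p the design allows, and the smallest adjusted p was 0.984.

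The genes that act with these factors were counted by their starts. Of 30 myeloid regulators, 22 (73.3%) were called in all 6 lists, against 35% of protein-coding genes, with a median mean percentile of 92.8 against 58. The highest were Stat3, the transducer of G-CSF and IL-6 signals, at a mean percentile of 99.7, Cbfb, the partner of RUNX1, at 99.5, Klf4, a monocyte factor, at 98.4, and Nab2, a corepressor of EGR factors, at 97.9. Of 31 myeloid receptors and effector targets, 8 (25.8%) were called in all 6 lists, with a median of 41.2. The highest were Csf2ra, the GM-CSF receptor α chain, at 95, Tlr4, the lipopolysaccharide receptor, at 93.8, and Il6ra, the IL-6 receptor, at 87.8. Camp, which encodes a granule antimicrobial peptide, was called in the young lists only, at 82.2, 42.7 and 7.78; it was 1 of the 31, beside 0.231% of protein-coding genes. The granule protease genes Ctsg, Elane and Prtn3 were called in no list, which is 9.68% of the 31 and below the 15.6% of protein-coding genes.

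As a check of the labelled cell type, 5 of 10 long-term stem cell markers (50%) were called at the start in all 6 lists, against 35% of protein-coding genes. In at least 5 lists, 6 of the 10 markers were called, beside 10899 of 21627 protein-coding genes. Of the same markers, Slamf1 was called in no list and Tek in 1. The 2 genes whose surface protein the sorted cells lack were also called: Flt3 in 4 lists, at percentiles from 92.1 to 98.7, and Cd34 in 5. None of 6 B-cell, 6 T- and NK-cell, 8 mature granulocyte and monocyte or 4 endothelial and stromal markers was called in all 6 lists. Called in 5 lists were the B-cell genes Ebf1 and Cd79b and the endothelial and stromal genes Pecam1 and Col1a1, 2 of 6 and 2 of 4. Beside these stand the same 10899 of 21627 genes called in at least 5 lists. Of the erythroid markers 1 of 5, and of the megakaryocyte markers 3 of 4, were called in all 6. Of the 21627 protein-coding genes, the aged lists called 14571, 13967 and 11240, and the young lists 14560, 10853 and 14005. The mature granulocyte and monocyte markers were called at 3, 3 and 0 starts in the aged lists and 5, 5 and 2 in the young lists. Whether these marker counts differed with age was not tested. The part of such cells in the calls above was not tested, and fewer cells of a type and less accessibility per cell cannot be told apart in bulk.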

How the data were processed

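ATAC-seq peak lists of 3 aged and 3 young samples were used as deposited by the authors. Per the submitters' processing notes, Bowtie2, SAMtools, Picard and MACS2 were used with mm10; their versions and settings are not given in the sources used here. Each deposited list gives a peak's integer score, its fold enrichment and its −log10 p and −log10 q; no deposited p-value was above 0.01. The fold is the authors' own value and was used only to describe peaks within a list. Read counts were not used here.

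Distinct peaks were merged over the 6 lists where they shared 1 bp, and a list called a region if any of its peaks overlapped it. A region's percentile is that of its strongest peak by −log10 p within the list, ties averaged. Gene positions and promoter sequences are from RefSeq (GRCm38.p6). Strand and start came from the promoter table for Cebpa, Cebpb, Gfi1 and Csf3r; for the other 4 genes strand is general knowledge and 1 kb around both ends was used for the counts over genes. Ages were compared by exact two-sided permutation tests over lists with Benjamini-Hochberg adjustment (Python 3.11.15, numpy 2.4.6, pandas 2.3.3, scipy 1.17.1), checked on simulated data. Named regions were the starts, the known enhancer windows, regions called in all 6 lists or in all 3 lists of one age and none of the other, and each gene's strongest distal region; in pathway lists, up to 4 genes called at one age only or with the highest mean percentile. The members, gene lists, enhancer windows and tests were chosen with earlier results of these data known. The alternatives were a −log10 q of at least 1.3, the strongest 100000 peaks of each list, peaks covering 50% of a region, windows of 20 and 100 kb, promoter windows of 500 bp and 2.5 kb, leaving out lists, and pairing by title number.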

Additional observations from a re-analysis of the deposited data

How the results depend on the processing

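The depth behind the lists is unknown, and the smallest p that 3 lists against 3 allow is 0.1, so no alternative could pass 0.05. The count of 18 regions called in all 6 lists was 4 when peaks had to cover 50% of a region, 8 within 20 kb, 33 within 100 kb, 37 without young replicate 2 and aged replicate 3, and 18 to 26 when each list was left out in turn. The 3 genes with a start called in all lists were 1 at a −log10 q of at least 1.3, 1 at 50% cover, 2 with starts widened by 500 bp in place of 1 kb, 7 without both lists and 3 to 5 with single lists left out. The 1 aged-only region was 0 at that q, at 50% cover and within 20 kb, 4 without both lists and 1 to 4 with single lists left out. The 1 young-only region was 0 among the strongest 100000 peaks, 5 without both lists and 1 to 6 with single lists left out. Shares over all regions or genes at these settings are not given here, so these counts have no background beside them.

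The difference in regions called (aged minus young, -14) was 3.67 among the strongest 100000 peaks and -27.8 to -1.67 with single lists left out. The difference in mean percentile (1.1) was -0.0853 among the strongest 100000 peaks, -5.17 within 20 kb, -0.226 without both lists and -3.3 to 4.17 with single lists left out.

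By gene, many of these differences changed sign, and those that did are given here. For regions called, the strongest 100000 peaks gave 1.33 at Cebpb, 1 at Cebpe, 2.67 at Csf1r, 0.333 at Csf3r, -0.667 at Gfi1 and 1.33 at Spi1. The q limit gave 1 at Cebpe, 0.667 at Csf1r, 0.667 at Csf3r and -2 at Gfi1. Windows of 20 kb gave 0.333 at Cebpa, 1.33 at Csf1r and 1.33 at Csf3r, and 100 kb gave 0.333 at Csf1r and -3.67 at Gfi1. Without both lists Csf1r was 5.5. Leaving out single lists gave -3.33 to 0.667 at Cebpa, -2.33 to 0.167 at Cebpb, -3.67 to 3.83 at Csf1r, -4.83 to 2.67 at Csf3r, -1.5 to 1.5 at Gfi1 and -2.5 to 0.5 at Spi1.

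For the mean percentile, the strongest 100000 peaks gave 1.59 at Cebpa, -2.96 at Cebpe, -2.01 at Csf1r and -7.82 at Spi1. The q limit gave 7.14 at Cebpa and 6.79 at Gfi1, and 50% cover gave -2.62 at Cebpb and -1.11 at Spi1. Windows of 20 kb gave -5.59 at Cebpb, -12.6 at Csf1r and -8.52 at Spi1, and 100 kb gave -4.06 at Cebpd, -2.33 at Csf1r and -2.7 at Spi1. Without both lists the values were 0.9 at Cebpa, -6.33 at Csf1r and -1.71 at Spi1. Leaving out single lists gave -8.77 to 2.42 at Cebpa, -4.91 to 6.12 at Cebpb, -1.62 to 7.73 at Cebpd, -6.79 to 8.91 at Csf1r and -8.28 to 6.78 at Spi1. The differences at Cebpe (10), Csf3r (11.3) and Gfi1 (-9.63) kept their sign with single lists left out, at 7.48 to 12.5, 3.79 to 16.8 and -17.1 to -4.27. The cause of these changes was not tested.

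With lists paired by the number in their titles (replicate block), the differences remained -14 regions (exact sign-flip p = 0.25, the smallest that 3 pairs allow) and 1.1 percentile points (exact p = 1). The titles also give same-numbered lists the same experiment number, which the labels do not explain. In each of the 3 pairs the aged list called fewer regions (124 and 128, 96 and 109, 73 and 98). Relative to the length of the list, the direction differed between pairs. The 8 loci held 51.9 and 50.8, 75.1 and 43.2, and 57.7 and 89.5 peaks per 100000, with the aged list first. Same-numbered lists had correlations of -0.0243, -0.0186 and -0.0904 in their deviations from the age means, so the numbers were not used to pair them.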
